A study of Homo sapiens with 24 samples.

Results

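The 8 genes for DNA topoisomerases and tyrosyl-DNA phosphodiesterases, TOP1, TOP1MT, TOP2A, TOP2B, TOP3A, TOP3B, TDP1 and TDP2, were followed through RNA-seq counts of PEO1 and PEO4 cells. They were chosen by name, with earlier results of these data known. All 8 of 8 were listed in both count tables, among 28277 genes per table, and all 8 passed the filter on low counts in both. PEO1 and PEO4 are high-grade serous ovarian carcinoma lines with a common donor. PEO1 represents the chemotherapy-sensitive and PEO4 the resistant disease.

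The 24 libraries fell into 8 conditions with 3 biological replicates each. PEO1 A, labelled with the genotype WT, is the PEO1 line deficient in BRCA2, a gene of homologous recombination, and it was paired with PEO4 A, which is BRCA2+. Both were untreated and, according to the study's methods, both were grown with added sodium pyruvate. The B pair was made of PEO1 B, labelled BRCA2+, and PEO4 B, labelled WT. In the study's account, PEO1 B regained BRCA2 function through a spontaneous reversion. PEO4 also carries a BRCA2 reversion, one that restores its reading frame. The label WT on PEO4 B therefore does not mean BRCA2 deficiency. Each line of the B pair was left untreated or incubated with 5 µM pyridostatin (PDS) for 2 h or 6 h. PDS is a small molecule that binds and stabilises G-quadruplexes (G4s), the 4-stranded folds of guanine-rich DNA. The comparisons asked how the resistant line differs from the sensitive one, and how both lines respond to the G4 ligand. Every group is a single line, so that a difference between groups is one between these cultures.

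Topoisomerases cut DNA strands through a covalent link between a tyrosine of the enzyme and the DNA, let the strands pass or turn, and close the cut again. TOP1 and its mitochondrial relative TOP1MT cut a single strand and relax the twist that builds up around transcription and replication. TOP2A and TOP2B cut both strands, and TOP2A is made mainly in dividing cells while TOP2B is made in dividing and resting cells alike. TOP3A and TOP3B pass single strands through one another, TOP3A with the helicase BLM and TOP3B with TDRD3, and TOP3B can also act on RNA. When an enzyme stays trapped on its cut, the phosphodiesterases remove what is left of it: TDP1 takes TOP1 off the 3′ end, and TDP2 takes TOP2 off the 5′ end. TOP1 and TOP2 enzymes are the targets of several chemotherapies.

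On GRCh38, TOP1 is at chromosome 20, 41028822 to 41124487 on the plus strand, with 21 exons in its canonical transcript. TOP2A and TOP3A share chromosome 17, at 40388525 to 40417896 and 18271428 to 18314994, both on the minus strand. TOP2B is at chromosome 3, 25597905 to 25664907, and TOP3B at chromosome 22, 21957025 to 21982787, both on the minus strand. TDP1 is at chromosome 14, 89954968 to 90044764 on the plus strand, and TDP2 at chromosome 6, 24649979 to 24666899 on the minus strand. Exons of TOP1 and TOP3B overlap those of antisense genes, PLCG1-AS1 and PPM1F-AS1, and MIR4442 lies in an exon of TOP2B. PLCG1-AS1 held 2 to 14 counts per library in the A pair and 436 to 1230 in the B pair, whereas TOP1 held 1810 counts or more in every library. The sources used here do not say whether strand was used in counting, so reads of TOP1 and PLCG1-AS1 cannot be told apart where they overlap. PPM1F-AS1 held at most 159 counts and MIR4442 at most 187.

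Because PDS acts on G-rich DNA, the bases just upstream of 4 genes are shown: TOP1 and TDP2, the members with the largest rises at 6 h, TOP3A, which fell and returned, and TOP2A, the most abundant. RefSeq promoters, 250 bases before to 50 after the start on GRCh38.p14, were matched for 7 of the 8 genes, with 2 for TOP2B. The 250 upstream bases are printed 5′ to 3′ on the gene's strand. In TOP1, TOP3A and TDP2 the capitals mark runs of 3 or more G or of 3 or more C, and in TOP2A they mark CCAAT boxes and TTTGAA elements on either strand.
TOP1, chr20:41028572-41028821, plus strand: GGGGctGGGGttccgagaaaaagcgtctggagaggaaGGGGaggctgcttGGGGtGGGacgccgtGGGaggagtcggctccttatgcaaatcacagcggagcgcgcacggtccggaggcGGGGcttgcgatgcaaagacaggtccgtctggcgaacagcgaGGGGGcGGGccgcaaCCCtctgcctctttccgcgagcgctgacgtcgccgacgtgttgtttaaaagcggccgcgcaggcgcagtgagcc
TOP3A, chr17:18314995-18315244, minus strand: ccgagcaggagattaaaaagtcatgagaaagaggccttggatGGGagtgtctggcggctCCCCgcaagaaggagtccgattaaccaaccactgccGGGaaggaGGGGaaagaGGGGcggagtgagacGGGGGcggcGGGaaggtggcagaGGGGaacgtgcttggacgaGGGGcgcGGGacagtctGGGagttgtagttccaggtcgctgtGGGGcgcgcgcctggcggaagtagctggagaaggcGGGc
TDP2, chr6:24666900-24667149, minus strand: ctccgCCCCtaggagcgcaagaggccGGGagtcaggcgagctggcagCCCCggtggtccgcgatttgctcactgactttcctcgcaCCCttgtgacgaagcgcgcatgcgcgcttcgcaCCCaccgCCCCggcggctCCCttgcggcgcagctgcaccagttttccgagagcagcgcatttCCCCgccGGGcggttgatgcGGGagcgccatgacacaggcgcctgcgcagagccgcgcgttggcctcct
TOP2A, chr17:40417897-40418146, minus strand: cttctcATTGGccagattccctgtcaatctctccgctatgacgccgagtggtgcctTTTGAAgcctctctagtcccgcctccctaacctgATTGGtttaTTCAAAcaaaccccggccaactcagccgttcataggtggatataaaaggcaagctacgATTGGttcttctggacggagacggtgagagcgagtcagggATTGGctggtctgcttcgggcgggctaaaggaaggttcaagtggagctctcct

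The TOP1 and TOP3A stretches carry their runs as G on the gene's strand, with 9 runs of G and 1 of C for TOP1 and 12 of G and 1 of C for TOP3A. TDP2 has the opposite bias, with 3 runs of G and 7 of C. A canonical G4 motif, 4 runs of at least 3 G separated by loops of 1 to 7 bases on either strand, was matched in none of the member promoters of 300 bases, and in 25% of the 35116 RefSeq promoters of that length. The runs themselves were about as many as elsewhere: 8 to 17 per member promoter against a median of 13. The TOP2A promoter had the lowest G and C content of the 8, 55.7% against a median of 58.7% over all promoters. Its upstream stretch holds 4 matches of CCAAT, the site of the factor NF-Y, and 2 of TTTGAA, the core of the CHR element found in promoters of cell cycle genes. CCAAT was found at least once in 34.6% of all promoters and TTTGAA in 15.2%, both strands counted. These matches are letters in a window and not measured binding.

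Total counts per library were 32528913 to 63882077 in the A pair and 18699929 to 43713947 in the B pair. Within the B pair every treated library, with 33260167 counts or more, was deeper than every untreated one, with 22375644 or fewer. The share of counts on ribosomal RNA genes was 0.217% to 0.474% in the untreated libraries and 0.0163% to 0.0369% in the treated ones. Depth and PDS treatment therefore cannot be told apart in the comparisons with untreated cells, and whether they have a part in those results was not tested. All 7 epithelial and ovarian carcinoma markers reached 1 CPM (counts scaled to library size) in every condition, with summed levels of 4126 to 13904 CPM. The 4 leukocyte markers summed to at most 6.74 CPM, with CD3E at 0 in all 8 conditions and PTPRC at 0 in 5 of them, and the 3 endothelial markers to at most 2.72 CPM. The 4 fibroblast markers summed to at most 36.7 CPM, with the highest values in PEO1 A and in untreated PEO4 B. CPM were scaled by TMM within each table, and levels of the A and B pairs are not compared directly. In bulk RNA a change in the share of cells that express a gene and a change per cell cannot be told apart.

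TOP2A was the most abundant of the 8 transcripts for its length in all 8 conditions when levels were divided by the union of a gene's exons. Its mean level was 95.9 ± 2.85 CPM per kb (SD, n = 3) in PEO1 A and 63.1 ± 5.40 in PEO4 A. Within the B pair it was highest in PEO1 at 2 h of PDS, 68.2 ± 1.65 CPM per kb, and lowest in PEO4 at 6 h, 50.4 ± 0.582. TOP3B was the least abundant in 7 conditions, at 1.81 to 2.70 CPM per kb, and in PEO1 B at 6 h it exchanged the last place with TDP1, whose libraries overlapped with its own. Between these ends the order depended on the line. In untreated PEO1 B, TOP1 came second at 15.7 ± 1.11 CPM per kb, followed by TOP2B at 9.34 ± 0.274, TDP2 at 7.24 ± 0.569 and TOP1MT at 4.73 ± 0.252. In untreated PEO4 B, TOP1MT came second at 14.95 ± 1.012 CPM per kb. TDP2, TOP2B and TOP1 followed it at 9.02 ± 0.406, 8.91 ± 0.613 and 8.69 ± 0.375 CPM per kb, with overlapping libraries. TOP1MT and TOP3A overlapped in untreated PEO1 B, as did TDP1 and TOP3B, while in untreated PEO4 B the last 3 places, TOP3A, TDP1 and TOP3B, were separated from each other. The order rests on the length used. With the longest transcript in place of the exon union, TOP1MT stood above TOP2A in PEO4 B at both PDS times, 65.2 against 62.7 CPM per kb at 2 h and 60.8 against 56.4 at 6 h.

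**Figure D1:**
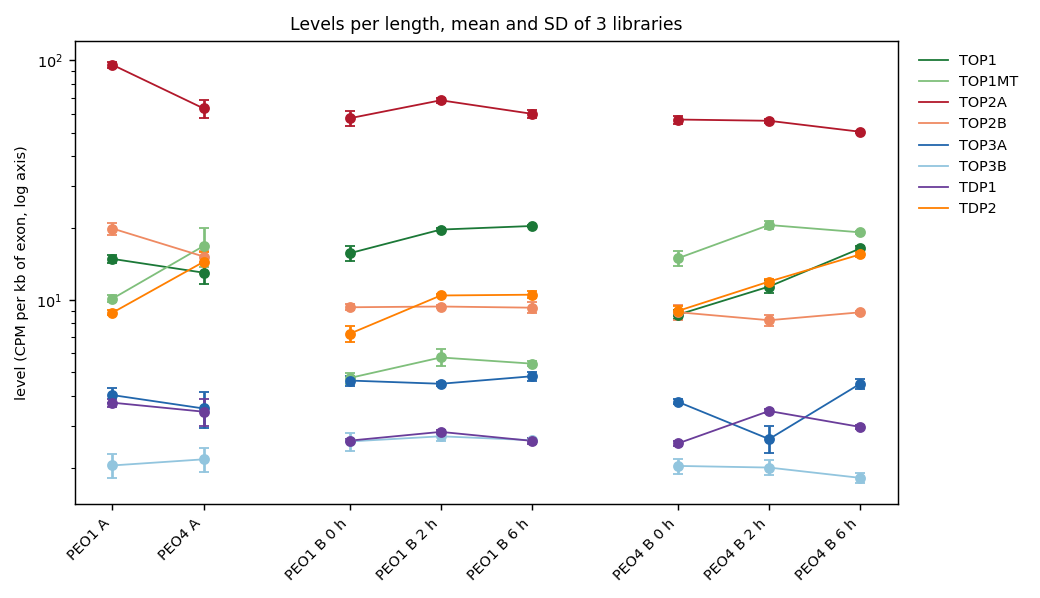
Level of each gene per kb of its exons (CPM per kb, log axis) in the 8 conditions, with points for the mean of 3 libraries and bars for their SD. Lines join conditions of a line or pair and are no fit. TOP2A lies above the other 7 genes throughout, at 63.1 to 95.9 CPM per kb in the A pair and 50.4 to 68.2 in the B pair, and TOP1 and TOP1MT exchange places between PEO1 B and PEO4 B.

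Untreated PEO4 differed from untreated PEO1 in 4 of the 8 genes in the A pair and in 5 of 8 in the B pair. Both pairs shared higher TOP1MT and higher TDP2 in PEO4. The type II enzymes TOP2A and TOP2B were called as lower in PEO4 in the A pair, and TOP1, TOP3A and TOP3B in the B pair. A gene was called at an adjusted p under 0.05 in edgeR's quasi-likelihood test over all genes, which called 61.6% of all 15882 genes tested in the A pair and 68.6% of 17020 in the B pair. The members were thus called no more often than genes at large. Their median log2 fold changes were -0.15 and -0.05, against -0.01 and -0.00 for all genes.

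TOP1MT, which relaxes mitochondrial DNA, showed the largest difference of the 8. In PEO1 B its level was 29.2, 32.3 and 29.8 CPM in the 3 libraries, and in PEO4 B it was 88.8, 101 and 97.9 CPM. The lowest PEO4 library lay above the highest PEO1 library by far more than the spread within either line. The difference was 1.66 ± 0.0656 on the log2 scale (SE), a 3.15-fold higher level in PEO4 (adjusted p = 5.3e-17), and it lay above 93.8% of all genes' differences. After 2 h and 6 h of PDS it was 1.84 and 1.82, so TOP1MT was past a 2-fold difference in each of these 3 comparisons. It was the only member called at that size, 1 of 8, where 24.8%, 26.5% and 23.0% of all genes were. In the A pair the levels were 62.8, 66.8 and 66.0 CPM in PEO1 and 131, 93.9 and 99.7 CPM in PEO4, again without overlap. The log2 fold change was 0.73 ± 0.112 (adjusted p = 0.00013). The highest value, 131 CPM, came from the first PEO4 A library. With each library of the pair left out in turn, the log2 fold change was 0.58 to 0.82 and kept its call.

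TOP1, the main nuclear type I enzyme, went the other way in the B pair. Its level was 166, 146 and 164 CPM in PEO1 B and 83.7, 90.9 and 89.5 CPM in PEO4 B. The 3 PEO4 libraries all lay far below the 3 PEO1 libraries, with a log2 fold change of -0.85 ± 0.0584 (adjusted p = 2.3e-12). The overlapping PLCG1-AS1 held 746 to 833 counts in untreated PEO1 B and 436 to 544 in PEO4 B, and its part in this difference was not tested. In the A pair the level was 144, 155 and 153 CPM in PEO1 and 144, 135 and 117 CPM in PEO4, with overlapping libraries and a log2 fold change of -0.19 ± 0.0829 (adjusted p = 0.063). Without the first PEO4 A library, the deepest of the pair, it was -0.25 with an adjusted p of 0.0063. The ratio of TOP1 to TOP1MT counts gathers both shifts. It was 5.25 ± 0.631 (SD, n = 3) in PEO1 B and 0.918 ± 0.0234 in PEO4 B, and 2.31 ± 0.0210 and 1.24 ± 0.175 in PEO1 A and PEO4 A.

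TOP2A, the type II enzyme of dividing cells, was lower in PEO4 of the A pair. Its level was 631, 608 and 595 CPM in PEO1 A and 384, 442 and 380 CPM in PEO4 A, without overlap and with a log2 fold change of -0.60 ± 0.0831 (adjusted p = 4e-05). In the B pair it was 386, 373 and 338 CPM against 351, 377 and 356 CPM, and the log2 fold change of -0.02 had a 95% interval of -0.13 to 0.09. TOP2B, which acts at promoters and enhancers in dividing and resting cells, followed the same course. It was 393, 371 and 350 CPM in PEO1 A and 299, 282 and 270 CPM in PEO4 A, a log2 fold change of -0.39 (adjusted p = 0.00085), and its B pair difference of -0.07 had an interval of -0.19 to 0.05.

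TDP2, the phosphodiesterase for TOP2 adducts, was higher in PEO4 of both pairs. It was 27.2, 26.1 and 25.9 CPM in PEO1 A and 39.9, 41.3 and 47.9 CPM in PEO4 A, a log2 fold change of 0.70 ± 0.0921 (adjusted p = 2.6e-05). In the B pair it was 23.1, 21.9 and 19.7 CPM in PEO1 and 28.2, 26.3 and 26.0 CPM in PEO4, a smaller difference of 0.32 ± 0.0661 (adjusted p = 0.00015). TDP1, the counterpart for TOP1 adducts, gave no called difference in either untreated comparison, with log2 fold changes of -0.12 (95% interval -0.36 to 0.12) in the A pair and -0.04 (-0.18 to 0.10) in the B pair. The ratio of TDP1 to TDP2 counts was 0.881 ± 0.0443 in PEO1 A and 0.503 ± 0.110 in PEO4 A. In the B pair it was 0.752 ± 0.0527 and 0.586 ± 0.0319.

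The TOP3 genes were modestly lower in PEO4 of the B pair. TOP3A was 36.4, 37.6 and 40.0 CPM in PEO1 B and 31.7, 30.2 and 31.0 CPM in PEO4 B, a log2 fold change of -0.29 (adjusted p = 0.0012). TOP3B was 15.9, 16.6 and 18.7 CPM against 14.03, 12.4 and 14.1 CPM, with no overlap and a log2 fold change of -0.34 (adjusted p = 0.0012). PPM1F-AS1, which overlaps TOP3B, held 98 to 113 counts in untreated PEO1 B and 36 to 59 in PEO4 B, beside 247 to 426 counts of TOP3B. At 2 h it held 123 to 159 and 48 to 61 counts, and at 6 h 151 to 159 and 63 to 89, and its part in the TOP3B differences was not tested. Neither gene was called in the A pair. The TOP3A difference there was -0.18 (adjusted p = 0.21), and without the first PEO4 A library it was -0.32 with an adjusted p of 0.0072. For TOP3B the A pair difference was 0.08, with an interval of -0.20 to 0.36.

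**Figure D2:**
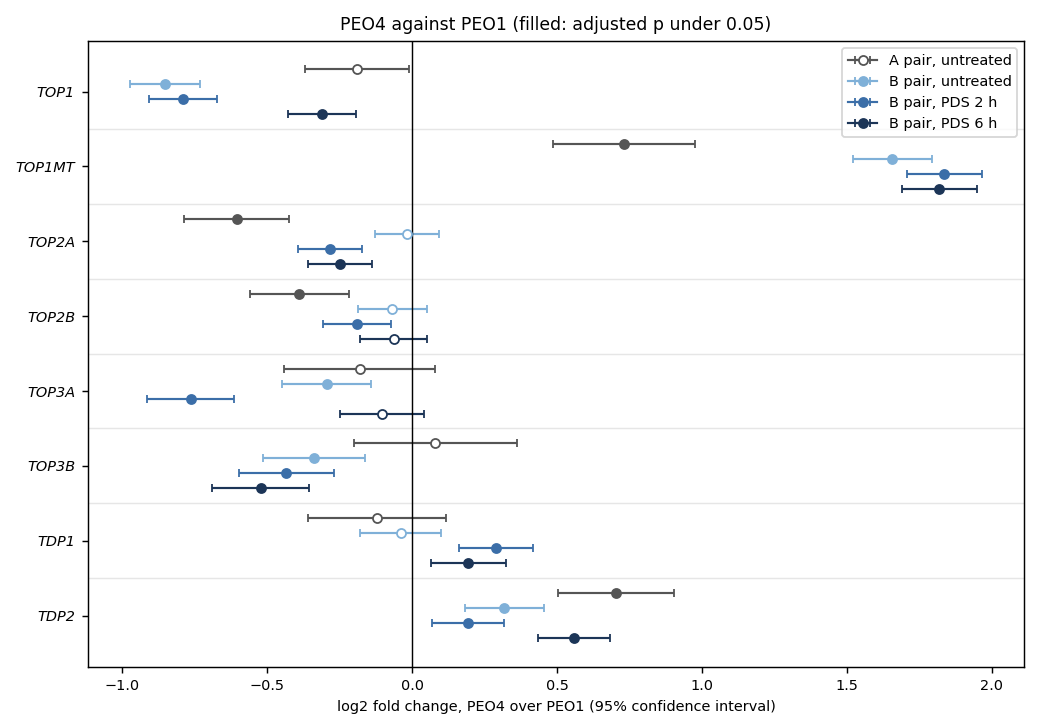
Log2 fold change of PEO4 over PEO1 for each gene, in untreated cells of the A pair and in the B pair untreated or after 2 h and 6 h of PDS. Points are edgeR estimates with 95% confidence intervals, filled where the adjusted p was under 0.05. TOP1MT lies at 1.66 to 1.84 in the B pair, and the TOP1 difference shrinks from -0.85 untreated to -0.31 at 6 h.

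The difference between the pairs was itself tested in a fit of all 24 libraries, which was added after the data had been seen. It called 6 of the 8 genes, against 42.6% of 17531 genes. The PEO4 to PEO1 difference was larger in the B pair for TOP1 and TOP1MT. It was larger in the A pair for TOP2A, TOP2B and TDP2, and the TOP3B difference was lower in the B pair, a call lost when any of 4 of the 12 libraries was left out (adjusted p of 0.075 to 0.087). TOP3A and TDP1 were not called, with differences of 0.09 (interval -0.19 to 0.36) and -0.11 (-0.34 to 0.12). The pairs differed in BRCA2 status of PEO1, medium, depth and possibly in counting, and these cannot be told apart.

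Between PDS-treated and untreated cells, 6 of the 8 genes were called in PEO4 B at 6 h and 3 of 8 in PEO1 B. TOP1, TOP1MT and TDP2 rose in both lines at both times. TOP3A and TDP1 were called in PEO4, TOP2A rose in PEO1 at 2 h and fell in PEO4 at 6 h, and TOP2B and TOP3B passed no test against untreated cells in either line. At 2 h, 4 members were called in PEO1 and 5 in PEO4. The test called 52.6% and 53.0% of all genes in PEO1 at 2 h and 6 h, and 65.3% and 69.8% in PEO4, so that the members' counts were near those of all genes. By direction, all 4 and all 3 calls in PEO1 were rises, against 26.4% and 27.0% of all genes called as higher. In PEO4, 4 and 5 members rose and 1 fell at each time, against 33.3% and 34.6% of all genes higher and 32.0% and 35.2% lower. This direction rested on the scaling. With library totals, which moved the median of all genes by -0.128 to -0.16, 2 members rose and 2 fell in PEO1 at 2 h and 2 rose and 1 fell at 6 h. In PEO4 it was then 4 and 3 at 2 h, and 3 and 3 at 6 h. With the upper quartile 4 rose and 2 fell in PEO4 at 2 h, and 3 and 2 at 6 h. In PEO1 4 members rose at 2 h and 2 at 6 h under that scaling, and none fell. The largest change of a member was the 1.89-fold rise of TOP1.

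TOP1 rose in step with exposure in PEO4 B and reached a plateau in PEO1 B. The PEO4 libraries held 83.7, 90.9 and 89.5 CPM untreated, 120, 107 and 120 CPM at 2 h, and 167, 162 and 170 CPM at 6 h. The 3 conditions did not overlap, and the 6 h libraries stood at the level of untreated PEO1 B. The log2 fold change was 0.39 ± 0.0580 at 2 h (adjusted p = 2.2e-06) and 0.92 ± 0.0581 at 6 h (adjusted p = 8.2e-13), and the step from 2 h to 6 h was 0.53 (adjusted p = 2.6e-08). In PEO1 the level was 201, 201 and 196 CPM at 2 h and 205, 206 and 208 CPM at 6 h, both above the untreated 146 to 166 CPM. These were rises of 0.33 and 0.38 (adjusted p = 3.1e-05 and 4.7e-06), with a further step of 0.05 (95% interval -0.07 to 0.17). The response of PEO4 exceeded that of PEO1 at 6 h by 0.54 ± 0.0810 (adjusted p = 6.9e-06). At 2 h the responses differed by 0.06, with an interval of -0.10 to 0.23. The PEO4 to PEO1 difference accordingly narrowed from -0.85 untreated and -0.79 at 2 h to -0.31 at 6 h. PLCG1-AS1, which overlaps TOP1, held 436 to 544 counts in untreated PEO4 B and 906 to 1169 at 6 h, before scaling to depth. Total counts of these libraries were 18699929 to 21893402 untreated and 34119767 to 43713947 at 6 h. The part of PLCG1-AS1 in the TOP1 values was not tested.

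TDP2 followed TOP1. In PEO4 B it was 28.2, 26.3 and 26.0 CPM untreated, 34.5, 36.3 and 36.0 CPM at 2 h, and 47.3, 46.3 and 45.1 CPM at 6 h, again without overlap between the 3 conditions. The log2 fold changes were 0.41 ± 0.0624 (adjusted p = 3.6e-06) and 0.78 ± 0.0621 (adjusted p = 4.8e-11). In PEO1 B it rose from 19.7 to 23.1 CPM untreated to 30.8 to 31.4 CPM at 2 h, a log2 fold change of 0.53 (adjusted p = 2e-07), and stayed at 30.2 to 32.4 CPM at 6 h, with a step of 0.01 (interval -0.11 to 0.14). Its rise at 2 h in PEO1 lay above 90.5% of all genes' changes. At 6 h the PEO4 response was larger by 0.24 (adjusted p = 0.029), a call lost when any of 7 of the 12 libraries was left out (adjusted p up to 0.098). The step from 2 h to 6 h differed by 0.37 ± 0.0848 (adjusted p = 0.0011).

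TOP3A went down and came back in PEO4. It was 31.7, 30.2 and 31.0 CPM untreated, 21.8, 18.8 and 24.4 CPM at 2 h, and 36.8, 35.2 and 38.6 CPM at 6 h, so that every 2 h library lay below every other. The log2 fold change was -0.51 ± 0.0751 at 2 h (adjusted p = 1.8e-06), and the return from 2 h to 6 h was 0.76 ± 0.0727 (adjusted p = 3.7e-09), above 94.1% of all genes. Its level at 6 h was above untreated by 0.25 (adjusted p = 0.004), but this call was lost when libraries were scaled by their totals or by the upper quartile (0.09 and 0.14, adjusted p = 0.26 and 0.086). In PEO1 the level stayed at 36.2 to 41.5 CPM in the 9 libraries, and the changes of -0.05 and 0.06 had intervals of -0.19 to 0.10 and -0.09 to 0.21. With library totals the 2 h change in PEO1 was called as well, at -0.19 (adjusted p = 0.024). The 2 h response differed between the lines by -0.47 ± 0.104 (adjusted p = 0.00094), and the step from 2 h to 6 h by 0.66 ± 0.101 (adjusted p = 1.5e-05).

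TDP1 rose in PEO4, most at 2 h. It was 15.5, 16.1 and 15.5 CPM untreated, 21.8, 21.5 and 21.1 CPM at 2 h, and 18.2, 18.8 and 18.2 CPM at 6 h. The rise was 0.45 ± 0.0647 at 2 h (adjusted p = 1.4e-06) and 0.23 at 6 h (adjusted p = 0.0032), and the fall between them was -0.22 (adjusted p = 0.0034). The 6 h rise was 0.07 with library totals (adjusted p = 0.36) and 0.12 with the upper quartile (adjusted p = 0.12). In PEO1 the changes were 0.12 (interval -0.01 to 0.26) and -0.00 (-0.14 to 0.13). The lines' responses differed at 2 h by 0.33 ± 0.0919 (adjusted p = 0.0066). The difference of 0.23 at 6 h (adjusted p = 0.042) was lost when any of 11 of the 12 libraries was left out, with adjusted p of 0.051 to 0.095. That call was also lost with library totals (adjusted p = 0.058), the upper quartile (0.07), no filter (0.088) and a replicate block (0.053). With DESeq2 its adjusted p was 0.069.

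TOP1MT rose in both lines from its different starting levels. In PEO4 it went from 88.8 to 101 CPM untreated to 129 to 138 CPM at 2 h and 122 to 125 CPM at 6 h, log2 fold changes of 0.46 and 0.36 (adjusted p = 3.5e-07 and 1e-05). In PEO1 it went from 29.2 to 32.3 CPM to 33.9 to 40.0 and 34.0 to 35.8 CPM, changes of 0.28 and 0.20 (adjusted p = 0.00083 and 0.014). The PEO1 calls were lost when libraries were scaled by their totals (0.13 and 0.05, adjusted p = 0.098 and 0.54). The PEO1 call at 6 h was also lost with the upper quartile (0.11, adjusted p = 0.17). The lines' responses were not called as different, by 0.18 at 2 h (interval -0.01 to 0.36) and 0.16 at 6 h (-0.02 to 0.35).

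TOP2A moved less. In PEO1 it was 338 to 386 CPM untreated, 428 to 447 CPM at 2 h and 369 to 396 CPM at 6 h, a rise of 0.25 at 2 h (adjusted p = 0.00038) that became 0.10 with library totals (adjusted p = 0.11). In PEO4 it was 351 to 377 CPM untreated, 351 to 362 CPM at 2 h and 317 to 325 CPM at 6 h, with a fall of 0.17 on the log2 scale at 6 h (adjusted p = 0.007). With library totals its PEO4 change at 2 h was also called, at -0.15 (adjusted p = 0.018). The PEO4 response differed from that of PEO1 by -0.27 at 2 h (adjusted p = 0.0074) and by -0.23 at 6 h (adjusted p = 0.014). Leaving out the third untreated PEO1 B library ended the 6 h call, at an adjusted p of 0.057. From 2 h to 6 h TOP2A fell in PEO1 by 0.19 and in PEO4 by 0.15 (adjusted p = 0.033 and 0.017), calls that were lost when any of 5 and any of 3 of the 6 libraries was left out. TOP2A was the only member called between 2 h and 6 h in PEO1, where 6.94% of all genes were called. In PEO4 5 members were called, against 60.1%.

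TOP2B gave no call against untreated cells in the B pair, at 166 to 184 CPM in the 9 PEO1 libraries and 145 to 174 CPM in the 9 PEO4 libraries. Its 4 changes against untreated cells lay between -0.11 and 0.01, and the interval of the largest, that of PEO4 at 2 h, was -0.23 to 0.01. That change was called as a fall under each other scaling and with DESeq2 (-0.13, adjusted p = 0.042): with RLE size factors (-0.13, adjusted p = 0.047), with library totals (-0.24, adjusted p = 0.00061) and with the upper quartile (-0.17, adjusted p = 0.0072). It was also called without the second untreated PEO4 B library or the third PEO4 B library at 2 h (adjusted p = 0.015 and 0.048). With library totals its changes at 6 h were also called as falls in both lines, and its PEO1 change at 2 h became a called fall of 0.14. TOP3B, at 11.6 to 18.7 CPM, gave no call either, with changes of -0.17 to 0.07. Its 6 h change in PEO4 of -0.17 (adjusted p = 0.082) was called as -0.33 with library totals (adjusted p = 0.0019), -0.28 with the upper quartile (adjusted p = 0.0058) and -0.22 without the second untreated PEO4 B library (adjusted p = 0.04).

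**Figure D3:**
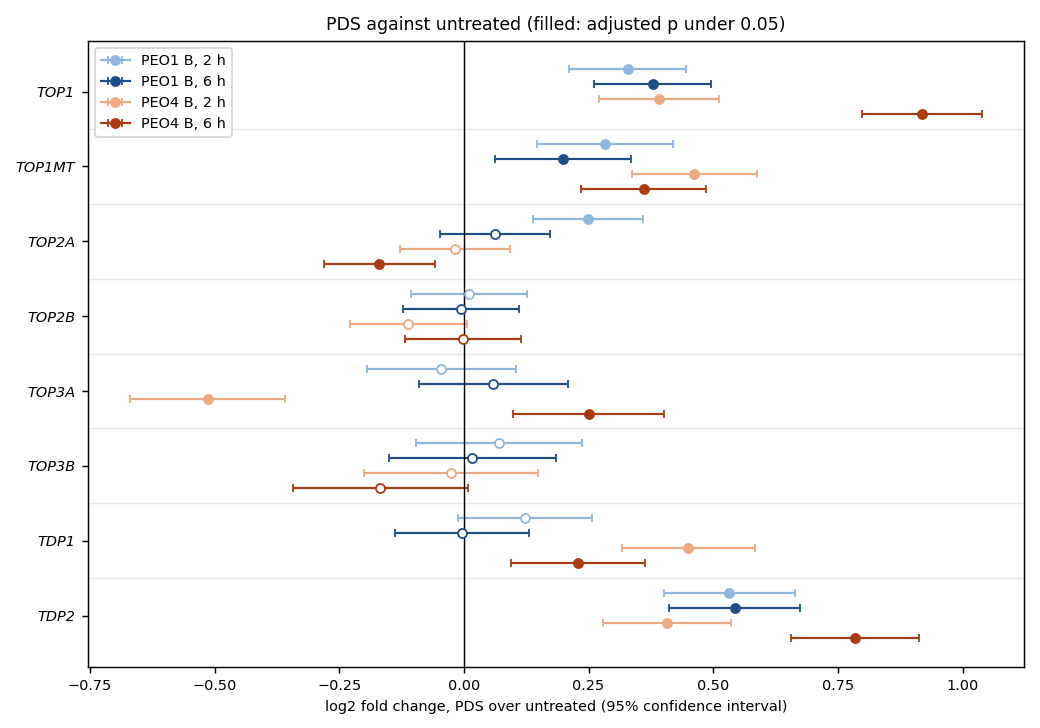
Log2 fold change of PDS over untreated cells at 2 h and 6 h for each gene in PEO1 B and PEO4 B. Points are edgeR estimates with 95% confidence intervals, filled where the adjusted p was under 0.05. TOP1 and TDP2 reach 0.92 and 0.78 in PEO4 at 6 h, and TOP3A lies at -0.51 at 2 h and 0.25 at 6 h.

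Between treated cells of the B pair all 8 genes were called at 2 h, against 72.9% of all genes, and 6 of 8 at 6 h, against 68.6%. At 2 h TOP3A was lower in PEO4 by 0.76 on the log2 scale (adjusted p = 8.9e-10) and its libraries lay far apart, whereas at 6 h the difference of -0.10 had an interval of -0.25 to 0.04 and the libraries overlapped. TDP1 was higher in PEO4 by 0.29 and 0.19 (adjusted p = 0.00019 and 0.0086). TDP2 was higher by 0.19 and 0.56 (adjusted p = 0.006 and 8.4e-09), and TOP3B was lower by 0.43 and 0.52. TOP2A was lower in PEO4 by 0.28 and 0.25, and TOP2B by 0.19 at 2 h. The TDP1 to TDP2 ratio of counts at 6 h was 0.514 ± 0.0326 in PEO1 B and 0.398 ± 0.0109 in PEO4 B, below every untreated library of the same line. The TOP3A to TOP3B ratio in PEO4 B was 2.30 ± 0.124 untreated, 1.64 ± 0.324 at 2 h and 3.07 ± 0.273 at 6 h.

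The test of the responses themselves, PEO4 minus PEO1, called 3 members at 2 h (37.3% of all genes), 4 at 6 h (47.4%) and 3 for the step from 2 h to 6 h (43.3%). For TOP1 that step differed by 0.48 ± 0.0799 (adjusted p = 4e-05), and the other calls are given above. TOP1MT, TOP2B and TOP3B were called in none of these 3 tests.

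**Figure D4:**
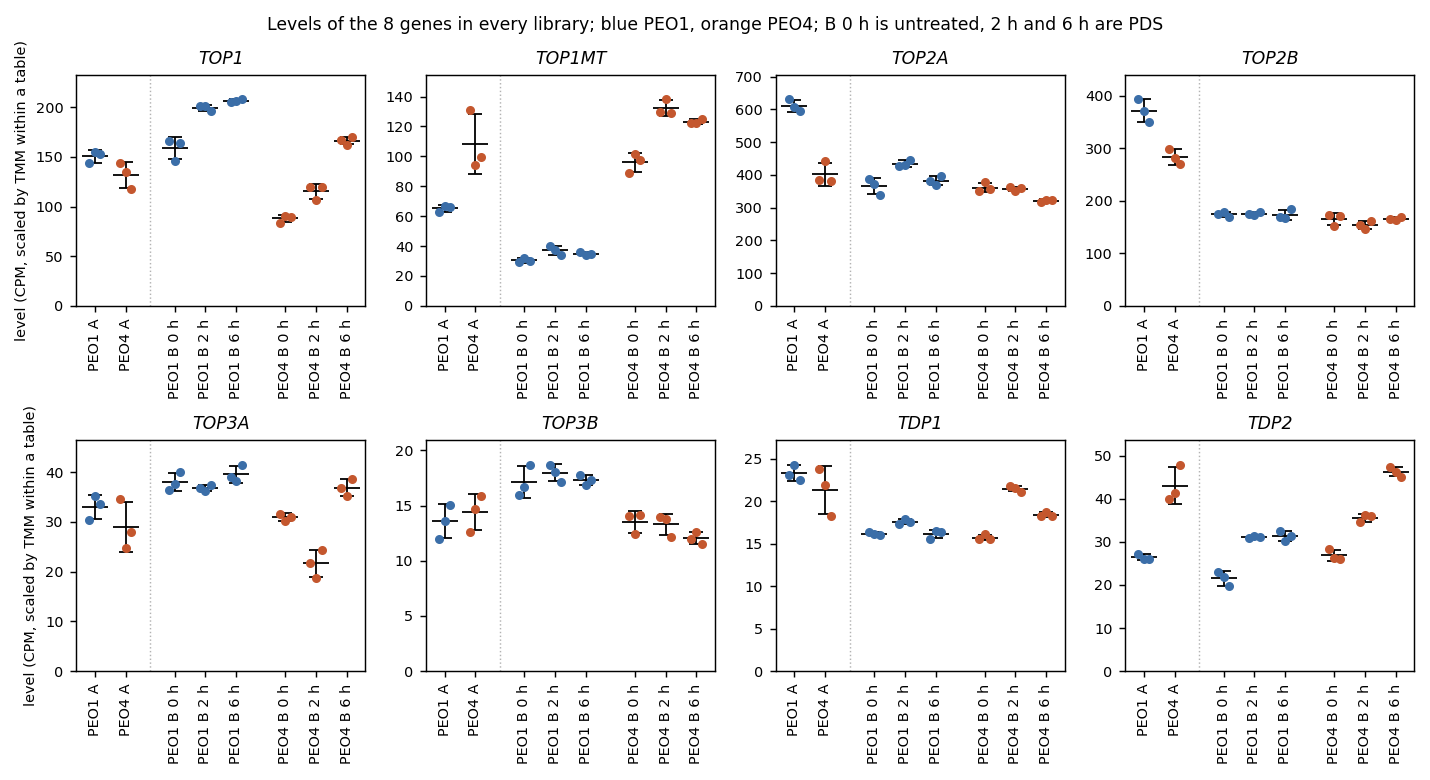
Level of each gene in all 24 libraries (CPM scaled by TMM within a table), with points for libraries, blue for PEO1 and orange for PEO4, and bars for the mean and SD of 3. The dotted line divides the A pair from the B pair, whose levels are not comparable. In PEO4 B, TOP1 and TDP2 climb through 2 h and 6 h, and TOP3A dips to 18.8 to 24.4 CPM at 2 h.

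The partners of the members were read from 9 lists with 81 genes in all, and a list is described by counts beside those of all genes. Of all genes, 30.1% were higher and 31.6% lower in the A pair, 34.0% and 34.6% in the untreated B pair, 27.0% and 26.0% after 6 h of PDS in PEO1, and 34.6% and 35.2% in PEO4. At 2 h the shares were 26.4% and 26.2% in PEO1, and 33.3% and 32.0% in PEO4. Among the partners of TOP3A and TOP3B, namely BLM, RMI1, RMI2, TDRD3 and FMR1, RMI1 fell and returned in PEO4 and BLM passed the test for the return. RMI1, a scaffold of the BLM and TOP3A complex, fell by 0.47 at 2 h and rose by 0.48 from 2 h to 6 h (adjusted p = 6.2e-06 and 5.1e-06). BLM changed by -0.21 at 2 h (adjusted p = 0.051) and rose by 0.51 from 2 h to 6 h (adjusted p = 2.8e-05). RMI2, the other scaffold subunit, fell by 0.82 at 6 h in PEO4 and by 0.20 in PEO1 (adjusted p = 3.9e-09 and 0.045). From 2 h to 6 h in PEO4, 2 of the 5 partners were called higher and 2 lower, with RMI2 the largest fall. Of all genes, 28.9% were higher and 31.3% lower in that step. The list median for the step was -0.14, against -0.02 for all genes. The median of the list was -0.21 at 2 h in PEO4, against 0.00 for all genes. There 2 of 5 genes were called lower and none higher, against 32.0% and 33.3% of all genes. FMR1, an RNA-binding partner of TOP3B, was higher in untreated PEO4 B by 0.31 and fell by 0.51 at 6 h. In untreated cells 2 of the 5 partners were lower in PEO4 A and 2 in PEO4 B, where 1 was higher.

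The list for the removal of trapped topoisomerase holds 14 genes for proteases, SUMO and ubiquitin ligases and the MRN nuclease. In PEO4 10 of them rose and 3 fell after 6 h of PDS, with a median of 0.29 against -0.03 for all genes, and in PEO1 6 rose and none fell, with a median of 0.13. GCNA, a protease for protein adducts, had the largest rise in PEO4, 0.86, and RBBP8, the MRN partner CtIP, the largest fall, -0.29. Between untreated lines 5 were higher and 3 lower in PEO4 A, and 6 and 3 in PEO4 B. ZNF451, the SUMO ligase that acts with TDP2, was the highest of the list in both, by 1.47 in the A pair and 0.74 in the B pair (adjusted p = 2.8e-08 and 4.3e-10). RBBP8 was the lowest in the A pair, -1.59, and SPRTN, a DNA-protein crosslink protease, in the B pair, -0.57.

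Of the 6 genes of single-strand break repair that follow TDP1, 3 rose and 2 fell in PEO4 at 6 h, and 3 rose and 1 fell in PEO1. POLB, the gap-filling polymerase, had the largest rise in both, 0.74 and 0.44, and was lower in untreated PEO4 of both pairs, by 0.46 and 0.75 on the log2 scale. XRCC1, the scaffold, fell by 0.89 in PEO4 (adjusted p = 5e-10). LIG3 was the lone fall in PEO1, -0.18. Untreated, 1 gene was higher and 1 lower in the A pair (LIG3, 0.32, and POLB), and 1 and 2 in the B pair, where XRCC1 was higher by 0.71.

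Of the 6 end-joining genes that follow TDP2, 5 rose and none fell in PEO4 at 6 h, with a median of 0.63, and 4 rose and 1 fell in PEO1, with a median of 0.25. LIG4, the end-joining ligase, rose most in both, by 1.35 and 1.0 (adjusted p = 2.9e-10 and 1e-08), and PRKDC, the DNA-dependent kinase, fell by 0.50 in PEO1. In untreated PEO4 B, LIG4 was lower by 1.39 and XRCC6, the Ku70 subunit, by 1.09 on the log2 scale, while XRCC4 was higher by 0.25, and 2 genes were higher and 4 lower in all. In the A pair 1 was higher and 2 lower, XRCC5, the Ku80 subunit, by 0.72 and XRCC6 by -0.84.

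R-loops are RNA and DNA hybrids that form behind polymerases when DNA is undertwisted. Of 6 genes for their removal, 4 rose and none fell in PEO4 at 6 h, and 2 rose and 1 fell in PEO1. RNASEH2B, a subunit of RNase H2, rose most in both, by 0.37 and 0.38 (adjusted p = 0.00084 and 0.00072). Untreated, 1 was higher and 3 lower in PEO4 A, from RNASEH1 at 0.36 to RNASEH2B at -0.91. In PEO4 B 2 were higher and 3 lower, from RNASEH2A at 0.54 to AQR at -0.92.

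The 9 genes of the condensin and cohesin list, which also holds the gene of the loop-mediating protein CTCF, organise loops with TOP2A and TOP2B. In PEO1 7 rose and none fell at 6 h, SMC4 most by 0.54, and in PEO4 4 rose, NCAPG most by 0.75, and NCAPD2 fell by 0.13 on the log2 scale. In the untreated A pair 1 was higher, RAD21 by 0.33, and 5 were lower, NCAPD2 most by -1.12, with a median of -0.27. In the B pair 1 was higher, RAD21 by 0.21, and 3 were lower, SMC4 most by -0.76.

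The 8 genes of mitochondrial DNA maintenance, the company of TOP1MT, were read beside TOP1MT, which was higher in untreated PEO4. In the B pair 7 were lower and none higher, with a median of -0.64, and in the A pair 4 were lower and 1 higher, with a median of -0.42. TFB2M, a mitochondrial transcription factor, was the lowest in both, -1.85 and -1.24 (adjusted p = 6.9e-16 and 2.8e-07), and POLG2, the accessory subunit of the mitochondrial polymerase, was higher by 0.73 in the A pair. After 6 h of PDS 7 of 8 rose in PEO4 and 6 of 8 in PEO1, with medians of 0.75 and 0.53 and none lower. SSBP1, the mitochondrial single-strand binding protein, rose most, by 1.23 and 0.70 (adjusted p = 3.1e-12 and 4.2e-08).

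Of 18 G2/M genes, with which TOP2A is commonly expressed, 13 were lower and 1 higher in untreated PEO4 A, with a median of -0.42, in the same comparison in which TOP2A was lower. CCNB2 and KIF20A were the extremes, at -1.17 and 0.33. In the B pair, where TOP2A gave no call, 9 were lower and 6 higher, from BUB1B at -0.90 to KIF20A at 1.19. After 6 h of PDS in PEO4 17 of the 18 rose and only NUSAP1 fell, by 0.20 on the log2 scale, as TOP2A fell by 0.17. CDC20, an activator of the anaphase-promoting complex, rose most, by 0.86. In PEO1 10 rose and 1 fell at 6 h, from AURKB at 0.66 to BUB1 at -0.22. At 2 h 16 of the 18 rose in PEO1, where TOP2A also rose, and 13 in PEO4, with none lower in either. Of 9 G1/S genes, 5 were lower and 1 higher in the A pair, and 4 and 1 in the B pair. PCNA was the lowest in both, -1.37 and -1.17, with CCNE2 at 0.48 and E2F1 at 0.18 as the highest. After 6 h of PDS 5 rose and 1 fell in PEO4, from CCNE1 at 0.90 to E2F1 at -0.52, and 6 rose and 1 fell in PEO1, from CCNE2 at 0.92 to TYMS at -0.15.

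**Figure D5:**
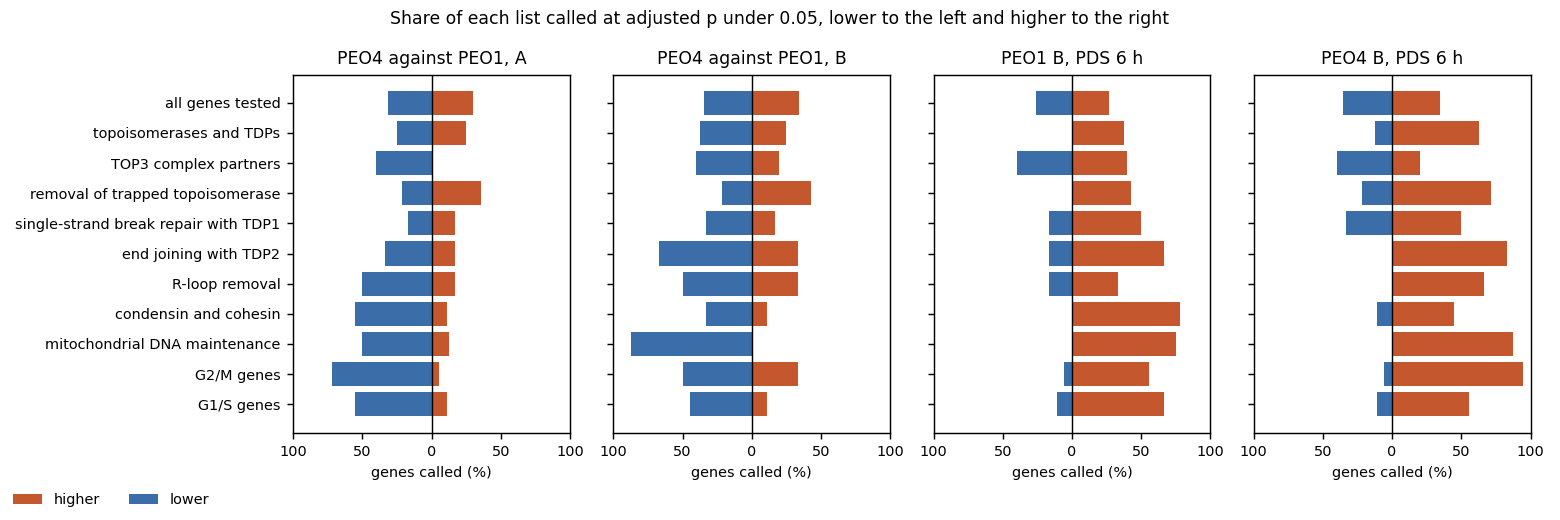
Percent of the genes of each list called at an adjusted p under 0.05 in 4 comparisons, with bars to the right for higher and to the left for lower. The top row gives all genes tested, and the second the 8 members. Mitochondrial DNA maintenance is 87.5% lower in untreated PEO4 B and 87.5% higher in PEO4 after 6 h of PDS, against 34.6% lower and 34.6% higher among all genes.

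Over the 18 libraries of the B pair, the genes whose log2 CPM followed each member most closely were picked among 9949 genes by Pearson's r, as a description of libraries that share lines, treatment and depth. TOP1 was followed most closely by NSUN2, an RNA methyltransferase (r = 0.994), and by DKC1, the pseudouridine synthase dyskerin (r = 0.990). TDP2 was followed by HDAC2 and STK3 (r = 0.974 for both), and TOP3A by NOP9 and KAT6A (r = 0.972 and 0.964). TOP1MT, whose pattern is set by the difference between lines, was followed by TRAFD1 and ZNF7 (r = 0.992 for both). TOP2A had NUSAP1, a spindle protein, and ATF6, a stress-response factor, at 0.907 and 0.902. TOP3B had PDZK1IP1 and TMEM132A (0.966 and 0.964), and TDP1 had ERRFI1 and DCAF4 (0.961 and 0.960). TOP2B had the lowest values, 0.883 with DDI2 and 0.870 with the readthrough transcript SPECC1L-ADORA2A.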

How the data were processed

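RNA-seq was performed on 24 libraries of PEO1 and PEO4 cells, 3 biological replicates of 8 conditions. RNA was column-purified with DNase treatment, and the A pair libraries were made with a directional poly(A) kit. Per the labels and the submitters' processing notes, FastQC, fastp, STAR and featureCounts were used with hg38. Their versions, the annotation, the strand setting and the handling of multimapping reads are not given in the sources used here. The authors deposited raw counts per gene, 1 table per pair, with 28277 genes each. Genes at 0 in all libraries numbered 6813 (A pair) and 4746 (B pair). The 2 tables may have been counted with different settings, since overlapping antisense genes differed between them.

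From these counts, genes were filtered with filterByExpr (minimum count 10, minimum total 15), scaled by TMM and fitted per table with edgeR 4.0.16 in R 4.3.3, by the robust quasi-likelihood test with a mean per condition. P-values were adjusted by the Benjamini-Hochberg method over all genes tested, with calls under 0.05. No table of ready-made comparisons was used. Intervals are 95% confidence intervals. With 3 libraries against 3 an exact permutation test could not go below p = 0.1, so none was used. The script was tested on simulated data: of genes changed by log2 1, 100 of 100 were recovered for the A pair (15699 genes, 8 false calls) and 99 of 100 for PEO4 B at 6 h (16599 genes, 11 false calls). The simulation gave all genes a common dispersion and changed few genes, all with higher counts, by log2 1 or 2. It did not cover smaller changes, the size of most member changes, or the choice of scaling. Log2 CPM used a prior count of 2. Alternatives were library totals, RLE size factors, the upper quartile, no filter, DESeq2 1.42.0, only the groups compared, a replicate block and each library left out.

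The genes, the 9 pathway lists and the tests were chosen with earlier results of these data known. Named were the 8 genes, the 2 genes with the highest Pearson r to each over the 18 B pair libraries (mean log2 CPM of at least 3, no pseudogenes), and the called genes with the largest rise and fall of each list. The values of 2 of these are not reported here. Other genes of the lists, XRCC6 in the B pair and RMI1, BLM, RMI2 and FMR1 beside TOP3A, were named after their values were seen. The fit across both tables was added after the data were seen. Positions are from RefSeq, as are the promoters, on GRCh38.p14. Strands, exon counts, lengths and overlapping genes are from GENCODE 44. Figures were drawn with matplotlib 3.10.9 under Python 3.11.15.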

Additional observations from a re-analysis of the deposited data

Results flagged for a closer look

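The response to PDS differed between PEO4 B and PEO1 B in 10 tests of the difference itself, given as PEO4 minus PEO1 on the log2 scale with edgeR's quasi-likelihood test. At 2 h the differences were -0.2668 for TOP2A, -0.4689 for TOP3A and 0.328 for TDP1. At 6 h they were 0.5407 for TOP1, -0.2314 for TOP2A, 0.2325 for TDP1 and 0.2408 for TDP2. For the step from 2 h to 6 h they were 0.4783 for TOP1, 0.6602 for TOP3A and 0.366 for TDP2. The 6 h calls of TDP1, TDP2 and TOP2A were lost in 11, 7 and 1 of the 12 fits with a library left out. That of TDP1 was also lost with library totals, the upper quartile, no filter, a replicate block and DESeq2.

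The PEO4 to PEO1 difference in untreated cells was itself unlike between the A pair and the B pair for 6 genes. As A pair minus B pair on the log2 scale it was 0.6294 for TOP1, -0.9557 for TOP1MT, -0.6196 for TOP2A, -0.3524 for TOP2B, 0.3835 for TOP3B and 0.3532 for TDP2. This fit spans the tables of both pairs, and it was added after the data were seen.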

How the results depend on the processing

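The TOP1 and TDP2 rises with PDS kept their calls in both lines under every scaling, filter, tool, block and left-out library run. Scaling mattered most: with library totals the median of all genes moved by -0.147 and -0.146 in PEO1 and by -0.128 and -0.16 in PEO4 at 2 h and 6 h, and 99 of the log2 fold changes kept their direction and call, 6 lost it, 6 gained it and 1 reversed. The reversed value was TOP2B in PEO1 at 2 h, -0.1377 (adjusted p = 0.042). With the upper quartile 104 kept their call, 4 lost it and 4 gained it; with RLE size factors 111 and 1 gained; with DESeq2 110, with 1 gained and 1 lost; and with only the groups compared all 72. Requiring a fold over 2 left 0 members called in every comparison but the 3 between lines of the B pair, where 1 remained, TOP1MT. Without a filter on low counts the number called in PEO1 between 2 h and 6 h was 0 (TOP2A, adjusted p = 0.05). When each library was left out, that number was 0 to 1, and the number called for the 6 h difference in response was 2 to 3; in the A pair it was 4 to 6. Of the leave-one-out values 827 kept their call, 31 lost it and 6 gained it. Replicate numbers were not found to pair the samples: same-numbered libraries had correlations of their deviations from -0.158 to 0.134 over 48 pairs, 1 of them over 0.1. With the replicate number as a block 111 values kept their call and TDP1 lost its 6 h difference in response (0.2323, adjusted p = 0.053). The cause of these changes was not tested. TOP3B and TDP1, with 247 to 818 and 320 to 1542 counts per library, had the fewest counts.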

Other observations

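The balance of the type II enzymes was read as the ratio of TOP2A to TOP2B counts. It was 1.65 ± 0.0494 (SD, n = 3) in PEO1 A and 1.42 ± 0.141 in PEO4 A. In PEO1 B it was 2.10 ± 0.110 untreated, 2.48 ± 0.0161 at 2 h and 2.20 ± 0.0446 at 6 h, and in PEO4 B it was 2.19 ± 0.243, 2.33 ± 0.0951 and 1.94 ± 0.0209. TOP1P1, a pseudogene of TOP1, held at most 28 counts in any library.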
